A study of Mus musculus with 30 samples.

Results

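Nuclear genes of the mitochondrial respiratory chain were followed in mouse embryonic stem (ES) cells with and without Tdg, the gene of thymine DNA glycosylase, a repair enzyme that removes mismatched thymine and oxidised forms of methylated cytosine from DNA. The genes were found by symbol in the deposited expression tables, namely those that start with Nduf, Uqcr, Cox4 to Cox8 or Atp5, and Sdha, Sdhb, Sdhc and Sdhd. Of the 20286 symbols, 90 match these names, and 86 of them had a level of at least 1 FPKM (fragments scaled to transcript length and library size) in at least 1 genotype. The same minimum left 12053 genes of all kinds, which are called measured here.

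Tdg -/- ES cells were set against Tdg fl/fl ES cells, whose floxed alleles leave Tdg in place, both of strain C57BL/6-ICR. Polyadenylated RNA was read from 2 libraries for each genotype, and the authors deposited 1 FPKM value for each gene and genotype. No spread between replicates can be had from such pooled values, so every difference here is a description without a test. The part of Tdg that was deleted, the number of cell clones and the culture medium of the RNA samples are not given in the sources used here. Tdg itself stood at 9.48 FPKM in Tdg -/- cells, against 22.1 FPKM in Tdg fl/fl cells, so that 42.9% of its value remained. The 7 ES cell markers lay between 67.4 and 4691 FPKM in Tdg -/- cells and between 70.0 and 4571 FPKM in Tdg fl/fl cells. Of 12 markers of primitive endoderm, fibroblasts or feeder cells and early mesoderm, the highest was Eomes, at 3.09 FPKM in Tdg -/- and 3.11 FPKM in Tdg fl/fl cells. Only 2 of the 5 fibroblast or feeder markers were measured, Thy1 and Twist1, with a sum of 2.75 FPKM in Tdg -/- and 3.83 FPKM in Tdg fl/fl cells, and Col1a1 stood at 0.30 and 0.42 FPKM. In bulk RNA, fewer cells that express a gene and less of its RNA per cell cannot be told apart.

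The respiratory chain passes electrons from NADH and succinate to oxygen across the inner mitochondrial membrane, and ATP synthase uses the proton gradient that results. Complex I takes electrons from NADH, complex II from succinate, complex III passes them from ubiquinol to cytochrome c, and complex IV, cytochrome c oxidase, hands them to oxygen. ATP synthase is counted as complex V. Most subunits are encoded in the nucleus and a few catalytic ones in mitochondrial DNA. ES cells rely strongly on glycolysis, yet they hold a working respiratory chain.

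Many nuclear respiratory genes are known to carry sites for NRF1, for ETS factors such as GABPA, and for YY1, and their promoters are shown here because the genes had mostly lower values together. RefSeq promoters of build GRCm38.p6, from 250 bases before to 50 after a gene's start, were matched for 72 of the 86 genes, with 78 promoters. The letters GCGCNTGCG (NRF1), on either strand, were in 27 of 78 promoters of the chain (34.6%), against 13.3% of the 11999 promoters of other measured genes and 6.31% of all 32851 promoters. AANATGGCG (YY1) was in 15.4% of promoters of the chain, against 5.05% for other measured genes and 2.38% of all. CCGGAAG (ETS) was in 21.8%, against 17.8% and 8.86%. Different motifs overlapped in 0 of the 78 promoters. Such matches are a description of letters and not of bound sites.

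The 180 bases before the start are printed for 6 genes chosen after their values were seen, with matches to these letters in capitals. Sdha and Sdhd belong to complex II, Uqcr11 to complex III, Cox6a1 to complex IV and Atp5h to complex V. Ndufa4 is shown because it had the highest log2 change of the 86 genes. The NRF1 match of Uqcr11 runs past the gene's start, so that only its first 5 bases are in the window.
Sdha, chr13:74350241-74350420, minus strand: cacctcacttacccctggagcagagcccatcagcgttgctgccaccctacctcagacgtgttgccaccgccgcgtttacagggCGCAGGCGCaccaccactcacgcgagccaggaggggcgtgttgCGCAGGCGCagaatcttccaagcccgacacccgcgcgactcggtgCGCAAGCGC
Sdhd, chr9:50603850-50604029, minus strand: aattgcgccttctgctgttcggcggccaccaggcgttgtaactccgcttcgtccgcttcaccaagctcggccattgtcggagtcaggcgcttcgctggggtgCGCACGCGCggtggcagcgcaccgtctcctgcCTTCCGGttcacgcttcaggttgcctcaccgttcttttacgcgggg
Uqcr11, chr10:80406822-80407001, minus strand: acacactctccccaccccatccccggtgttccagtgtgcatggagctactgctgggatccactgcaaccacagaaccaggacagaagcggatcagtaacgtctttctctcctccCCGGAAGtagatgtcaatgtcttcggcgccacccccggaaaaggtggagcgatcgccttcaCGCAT
Cox6a1, chr5:115348959-115349138, minus strand: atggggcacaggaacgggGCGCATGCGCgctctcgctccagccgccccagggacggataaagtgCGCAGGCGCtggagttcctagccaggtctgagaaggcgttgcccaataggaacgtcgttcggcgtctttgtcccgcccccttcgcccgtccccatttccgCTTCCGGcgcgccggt
Atp5h, chr11:115419920-115420099, minus strand: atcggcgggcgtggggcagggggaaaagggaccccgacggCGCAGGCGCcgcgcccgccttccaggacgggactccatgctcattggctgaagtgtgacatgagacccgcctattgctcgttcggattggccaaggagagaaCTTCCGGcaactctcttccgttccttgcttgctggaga
Ndufa4, chr6:11907451-11907630, minus strand: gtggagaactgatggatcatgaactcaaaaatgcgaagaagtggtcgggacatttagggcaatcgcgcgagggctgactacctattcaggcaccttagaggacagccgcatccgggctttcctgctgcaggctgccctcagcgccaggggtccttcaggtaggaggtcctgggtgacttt
Sdha holds 3 NRF1 matches, which start 97, 54 and 9 bases before the gene's start. Cox6a1 holds NRF1 letters on both strands 162 and 161 bases before the start, another NRF1 match at 116 and an ETS match at 16. The other 3 genes with a match have NRF1 and ETS letters. Ndufa4 holds none of the 3 motifs in this window. The printed genes do not stand for all 72 matched genes, of which 25 had an NRF1 match. Among genes not printed, Ndufa5 (0.29) had an NRF1 match, while Atp5g1 (-0.50) and Cox7a1 (-0.43) had none of the 3 motifs. The 25 genes with an NRF1 match had a median log2 change of -0.24, and the 47 matched genes without one had a median of -0.13. With and without an ETS match the medians were -0.18 and -0.13, and with and without a YY1 match they were -0.13 and -0.17. None of these differences was tested.

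Respiratory chain genes were lower in Tdg -/- cells as a group, by a small amount. Changes are log2((Tdg -/- FPKM + 1)/(Tdg fl/fl FPKM + 1)), a scale on which weakly expressed genes appear to differ less than they do. Of the 86 genes, 74 lay below 0 and 12 above, while 54.9% of all measured genes lay below 0 and 45.1% above. The median change was -0.17, against -0.02 for all measured genes. A log2 change of -0.25 or less was found for 22 of the 86 genes (25.6%), against 10.2% of all measured genes. A change of at least 0.25 was found for 2 (2.33%), against 8.92%. None of the 86 was past a log2 change of 1 or -1, against 0.183% of all measured genes in the higher and 0.174% in the lower direction. Summed over the 86 genes, the level was 11161 FPKM in Tdg -/- cells and 12421 FPKM in Tdg fl/fl cells, so that 89.9% remained. The sum of the whole table also stood lower in Tdg -/- cells, at 95.4% of its value in Tdg fl/fl cells. The excess of lower genes depends on the scaling: after quantile normalization of the tables, 61 of the 86 genes (70.9%) and 50.6% of all measured genes lay below 0.

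**Figure D1:**
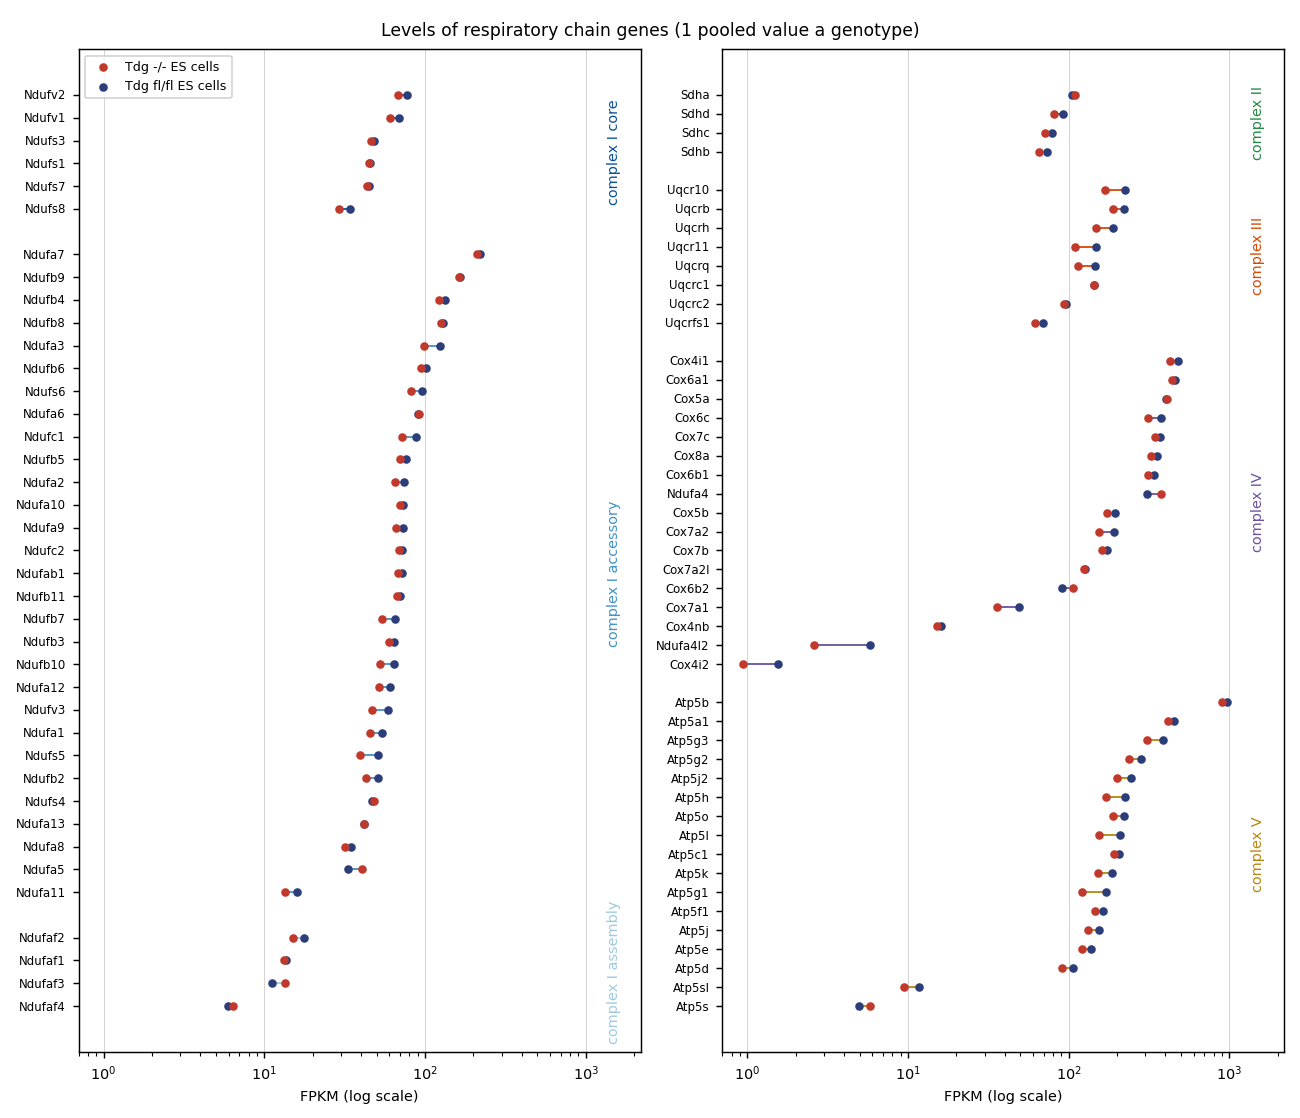
FPKM of the respiratory chain genes but 1 on a log axis, grouped by complex and ordered by the level in Tdg fl/fl cells, with red points for Tdg -/- and blue points for Tdg fl/fl ES cells. Most red points lie left of the blue one, and Atp5b has the highest level, at 906.1 and 963.8 FPKM.

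Levels differed far more between the genes than between the genotypes. Of the 86 genes, 37 stood at 100 FPKM or more in both genotypes and 10 stood under 20 FPKM in both. FPKM is scaled to transcript length, but length was not analysed here, so levels of different genes can be compared only roughly. Subunits of complex IV had a median of 172 FPKM in Tdg -/- and 194 FPKM in Tdg fl/fl cells, and complex V had medians of 154 and 206 FPKM. The medians of complex III were 129 and 147 FPKM, and those of complex II were 76.0 and 85.3 FPKM. Complex I stood lower, with medians of 46.2 and 48.3 FPKM for its core subunits and 66.1 and 72.3 FPKM for its accessory ones, and its 4 assembly factors had medians of 13.3 and 12.4 FPKM. The order of the medians was the same in both genotypes except that complex V stood above complex IV in Tdg fl/fl cells.

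The 7 nuclear core subunits of complex I, which hold the flavin and the iron-sulfur clusters, all lay below 0, with a median of -0.10 and a range of -0.22 to -0.02. Ndufs8, an iron-sulfur subunit, had the lowest change of them (-0.22), with 29.1 FPKM in Tdg -/- and 34.0 FPKM in Tdg fl/fl cells. Ndufv1, which binds NADH and the flavin, had 60.4 FPKM in Tdg -/- and 68.5 FPKM in Tdg fl/fl cells (-0.18). Its iron-sulfur partner Ndufv2 had 68.0 and 77.4 FPKM (-0.18). The 2 closest to equal changed side with the scaling. Ndufs1 and Ndufs7, at -0.02 and -0.06, turned to 0.04 and 0.0053 after quantile normalization.

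Of the 29 accessory subunits of complex I, which surround the core, 25 lay below 0 (86.2%), with a median of -0.12, and 6 had changes of -0.25 or less. The lowest was Ndufs5, with 39.5 FPKM in Tdg -/- and 51.1 FPKM in Tdg fl/fl cells (-0.36). Ndufa3 followed with 98.8 and 123.7 FPKM (-0.32), and Ndufv3 with 46.7 and 58.5 FPKM (-0.32). The most abundant accessory subunit was Ndufa7. It had 211 FPKM in Tdg -/- and 222 FPKM in Tdg fl/fl cells, Ndufb9 had 162 and 164 FPKM, and Ndufb4 had 122 and 134 FPKM (-0.13). The changes of Ndufa7 and Ndufb9 (-0.07 and -0.02) turned to 0.02 and 0.06 after quantile normalization. Only 4 accessory subunits lay above 0. Ndufa5 stood apart from the others, with 40.6 FPKM in Tdg -/- and 33.1 FPKM in Tdg fl/fl cells (0.29), while Ndufs4, Ndufa13 and Ndufa6 lay between 0.01 and 0.02.

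The assembly factors of complex I, which help to build it and are no part of the finished enzyme, showed no common direction. Ndufaf3 had 13.4 FPKM in Tdg -/- and 11.2 FPKM in Tdg fl/fl cells (0.23), and Ndufaf4 had 6.37 and 5.95 FPKM (0.08). Ndufaf2 had 15.2 and 17.7 FPKM (-0.21), and Ndufaf1 had 13.2 and 13.6 FPKM (-0.04). Their summed level in Tdg -/- cells was 99.2% of that in Tdg fl/fl cells, against 92.0% for the core and 91.4% for the accessory subunits.

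In complex II, succinate dehydrogenase, Sdha stood apart from the other 3 subunits. Sdha, the flavoprotein that oxidises succinate, had 110.3 FPKM in Tdg -/- and 105.5 FPKM in Tdg fl/fl cells (0.06). The iron-sulfur subunit Sdhb had 65.3 and 73.8 FPKM (-0.17). The membrane anchors Sdhc and Sdhd had 71.3 and 80.7 FPKM in Tdg -/- cells, against 79.1 and 91.6 FPKM in Tdg fl/fl cells (-0.15 and -0.18). Sdha and Sdhd both carry NRF1 letters in the promoters printed above.

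Complex III had a median of -0.29, with 7 of 8 subunits below 0 and 4 at -0.25 or less. Its subunits Uqcr10 and Uqcrq lie on chromosome 11, where the other measured genes had a median of -0.21. Without genes on that chromosome the median of complex III was -0.20, above the -0.24 of complex V, and relative to the 25 nearest genes the medians were -0.18 and -0.20. Within it, the lower values lay with the small accessory subunits. Uqcr11 had 109.1 FPKM in Tdg -/- and 147.8 FPKM in Tdg fl/fl cells (-0.43). Uqcr10 had 169 and 224 FPKM (-0.41). Uqcrh, the hinge protein that contacts the cytochrome, had 147.7 and 189.1 FPKM (-0.35). Uqcrq had 114.7 and 145.6 FPKM (-0.34) and Uqcrb had 187 and 222 FPKM (-0.24). The large core protein Uqcrc1 was nearly equal, with 143.8 FPKM in Tdg -/- and 143.5 FPKM in Tdg fl/fl cells. Uqcrc2, the second core protein, had 93.8 and 96.8 FPKM (-0.04, or 0.02 after quantile normalization), and Uqcrfs1, the Rieske iron-sulfur protein, had 61.6 and 69.4 FPKM (-0.17). Together the 5 small subunits held 78.4% of their Tdg fl/fl level and the other 3 held 96.6%. The cytochrome subunit Cyc1, which the naming rule leaves out, is in neither group and lay at -0.21. It had 130.3 FPKM in Tdg -/- and 150.5 FPKM in Tdg fl/fl cells. The split into small and other subunits was made after the values were seen. Transcript length was not analysed here, and its part in the split was not tested.

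Among the 17 measured genes counted for complex IV, 14 lay below 0 and the median was -0.13. Ndufa4 is counted here because its protein is found with cytochrome c oxidase despite its symbol. Ndufa4l2 was placed beside it as its paralog. After quantile normalization, 10 of the 17 lay below 0 and the median was -0.03, while 50.6% of all measured genes lay below 0. The most abundant subunits did not move alike. Cox6a1 had 440.8 FPKM in Tdg -/- and 456.1 FPKM in Tdg fl/fl cells (-0.05, or 0.08 after quantile normalization). Cox4i1, the largest nuclear subunit, had 425.5 and 477.4 FPKM (-0.17). Cox5a, on the matrix side, had 407.3 and 403.9 FPKM (0.01). The summed level of the complex in Tdg -/- cells was 94.5% of that in Tdg fl/fl cells, against 95.4% for the whole table. This sum includes Ndufa4, an abundant gene that was higher in Tdg -/- cells. Ndufa4 had the highest change of all 86 genes, with 375.3 FPKM in Tdg -/- and 306.2 FPKM in Tdg fl/fl cells (0.29). The lowest of all belonged to its paralog Ndufa4l2, known as a gene induced by hypoxia, with 2.59 FPKM in Tdg -/- and 5.81 FPKM in Tdg fl/fl cells (-0.92, or -1.13 with a pseudocount of 0.1). Cox4nb, which matches the prefix but is named Emc8 in RefSeq, had 15.2 and 16.1 FPKM (-0.08).

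**Figure D2:**
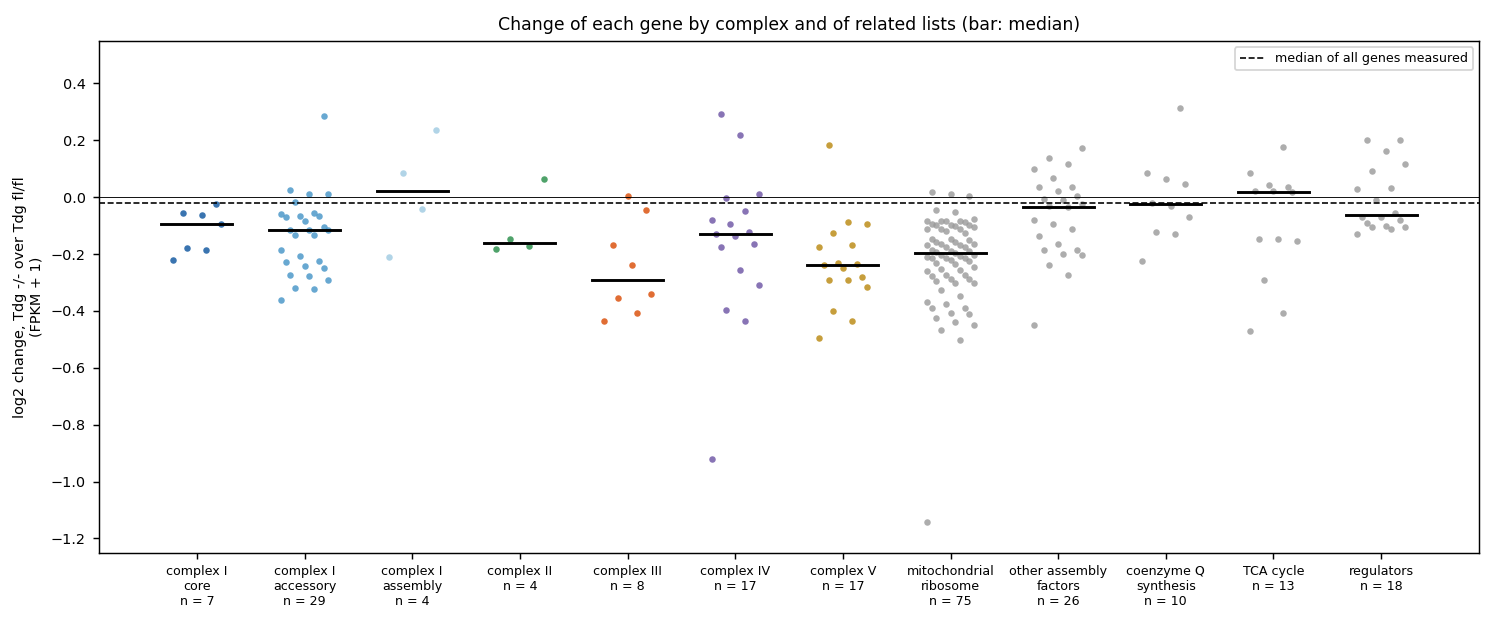
Log2 change (FPKM + 1) of Tdg -/- over Tdg fl/fl ES cells for each measured gene, by complex and for 5 related lists in grey, with black bars at the medians. The medians of complexes III and V lie lowest, at -0.29 and -0.24, the mitochondrial ribosomal proteins lie at -0.20, and the dashed line marks the median of all measured genes, -0.02.

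Several subunits of complex IV exist as tissue isoforms, and ES cells of both genotypes held mostly the widely expressed ones. Cox4i1 made up 99.8% of the summed Cox4i level in Tdg -/- and 99.7% in Tdg fl/fl cells. Cox4i2, the lung isoform, stood at 0.95 FPKM in Tdg -/- and 1.56 FPKM in Tdg fl/fl cells. By the higher of the 2 values it was the gene nearest above the minimum, followed by Atp5s and Ndufa4l2. The 4 symbols under the minimum were isoform genes too. Cox7b2, expressed in testis, had 0.29 and 0.72 FPKM, Cox8c, also of testis, had 0.18 and 0.33 FPKM, and the muscle genes Cox8b and Cox6a2 had 0.31 and 0.04 FPKM in Tdg -/- cells and were listed at 0 in Tdg fl/fl cells.

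The Cox6b and Cox7a families were exceptions with a sizeable second isoform. Cox6b2, known from testis, had 106.6 FPKM in Tdg -/- and 91.4 FPKM in Tdg fl/fl cells (0.22). Its partner Cox6b1 had 311.8 and 341.1 FPKM (-0.13, or 0 after quantile normalization), so that Cox6b2 made up 25.5% of their sum in Tdg -/- and 21.1% in Tdg fl/fl cells. The muscle isoform Cox7a1 had 35.9 FPKM in Tdg -/- and 48.9 FPKM in Tdg fl/fl cells (-0.43). The common Cox7a2 had 154.5 and 191.8 FPKM (-0.31), and Cox7a1 made up 18.9% of their sum in Tdg -/- and 20.3% in Tdg fl/fl cells. Cox7a2l, a related protein that joins complexes III and IV into supercomplexes, was nearly equal, with 125.5 and 125.8 FPKM. Cox7b had 160 and 174 FPKM (-0.12), and Cox8a had 323 and 356 FPKM (-0.14).

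Complex V had 16 of 17 genes below 0, a median of -0.24 and 7 genes at -0.25 or less. Its summed level in Tdg -/- cells was 86.0% of that in Tdg fl/fl cells. Atp5b, the beta subunit, had 906.1 FPKM in Tdg -/- and 963.8 FPKM in Tdg fl/fl cells (-0.09, or 0.05 after quantile normalization). Atp5c1, the gamma subunit, had 192 and 206 FPKM (-0.10), and Atp5a1, the alpha subunit, had 414.3 and 452.7 FPKM (-0.13, or 0 after quantile normalization). The other genes of the catalytic head and central stalk, Atp5d (delta) and Atp5e (epsilon), lay at -0.24 and -0.17. Atp5l, the small subunit g of the membrane part, had 154.5 and 209.1 FPKM (-0.43). Atp5h, subunit d of the peripheral stalk, had 170.6 and 225.5 FPKM (-0.40). The other genes of the peripheral stalk, Atp5f1, Atp5j and Atp5o, lay between -0.24 and -0.17. The only gene above 0, Atp5s (5.79 and 4.98 FPKM, 0.18), is named Dmac2l in RefSeq. Atp5sl, at 9.41 FPKM in Tdg -/- and 11.7 FPKM in Tdg fl/fl cells, is Dmac2 there, an assembly factor of complex I. Without these and Cox4nb, 72 of 83 genes lay below 0 and the median stayed at -0.17.

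The rotor ring of ATP synthase is built from subunit c, for which Atp5g1, Atp5g2 and Atp5g3 encode the same mature protein, and all 3 were lower in Tdg -/- cells. Atp5g3 had 309.1 FPKM in Tdg -/- and 385.1 FPKM in Tdg fl/fl cells (-0.32), Atp5g2 had 238.2 and 283.3 FPKM (-0.25), and Atp5g1 had 121.5 and 171.7 FPKM (-0.50). Their summed level was 669 FPKM in Tdg -/- and 840 FPKM in Tdg fl/fl cells. Atp5g1 made up 18.2% of the sum in Tdg -/- and 20.4% in Tdg fl/fl cells. The sources used here do not say how reads were shared between near-identical genes or pseudogenes, so values of such families are uncertain.

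**Figure D3:**
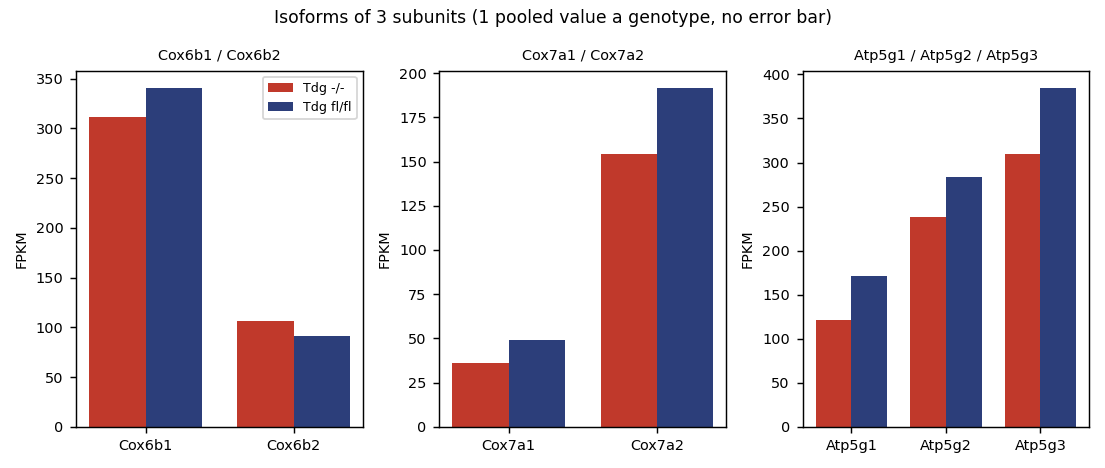
FPKM of the isoforms of 3 subunits, with Tdg -/- ES cells in red and Tdg fl/fl ES cells in blue, 1 pooled value each. Cox6b2 is the only isoform shown that is higher in Tdg -/- cells, at 106.6 against 91.4 FPKM.

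Part of these differences went with the chromosome, or the part of it, on which a gene lies. The 995 other measured genes on chromosome 11 had a median change of -0.21, while the medians on the other 19 chromosomes lay between -0.03 and 0.01. Of the 86 respiratory chain genes, 4 lie on chromosome 11: Atp5g1, Atp5h, Uqcr10 and Uqcrq, with changes of -0.50 to -0.34 and a median of -0.40. The 25 nearest measured genes of each had medians of -0.28, -0.22, -0.19 and -0.21. After subtraction of these medians, Atp5g1 lay at -0.22, Atp5h at -0.18, Uqcr10 at -0.21 and Uqcrq at -0.14. The genes with the highest changes, Ndufa4 and Ndufa5, lie on chromosome 6, where their neighbours had medians of 0.43 and 0.48. Relative to these neighbours they lay at -0.14 and -0.20. The other genes of the chain on chromosome 6, Ndufb2 and Ndufa9, lay at -0.23 and -0.13, with neighbours at -0.01 and -0.05. Over all 549 other measured genes on chromosome 6 the median was -0.03, so the higher neighbours were not a trait of the whole chromosome. For the 78 genes on other chromosomes, the neighbour medians ranged from -0.12 to 0.10.

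The lower values of the chain were not limited to these 2 chromosomes. Of the 78 genes elsewhere, 68 lay below 0, with a median of -0.16. On 16 of the 18 chromosomes other than 11 that hold genes of the chain, their median lay below that of the other measured genes, the exceptions being chromosome 6 and chromosome 12, where Atp5s is the one gene. Relative to the neighbours, 75 of the 86 genes lay below 0, with a median of -0.14, while 49.4% of all measured genes did.

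**Figure D4:**
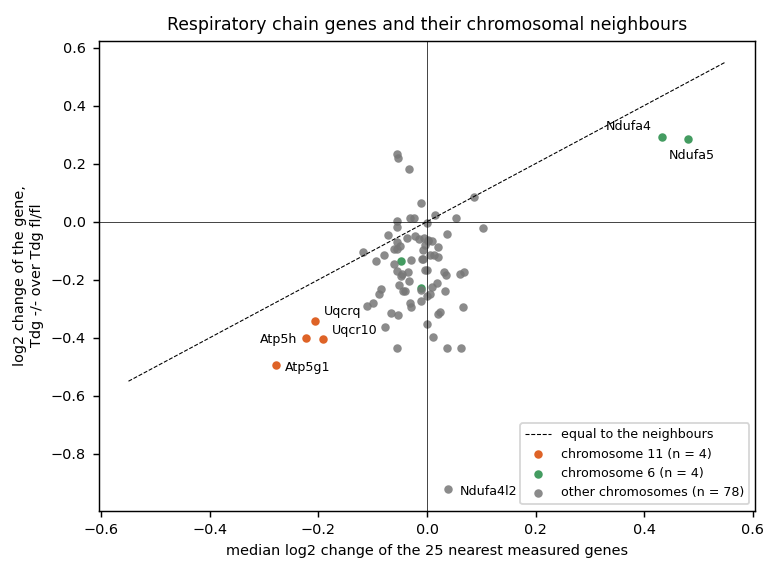
Log2 change of each of the 86 genes, Tdg -/- over Tdg fl/fl, against the median change of its 25 nearest measured genes, with genes on chromosomes 11 and 6 in colour. The dashed line marks equality; 75 of the 86 points lie below it, among them Ndufa4 and Ndufa5 at the upper right.

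Abundant genes in general were slightly lower in Tdg -/- cells, and the chain is made of abundant genes. Measured genes outside the chain with a mean of under 10 FPKM had a median change of 0.02, those between 10 and 50 FPKM one of -0.04, those between 50 and 200 FPKM one of -0.07, and those of 200 FPKM or more one of -0.08. In the same classes, the 4, 17, 49 and 16 genes of the chain had medians of -0.16, -0.08, -0.17 and -0.13. Under 10 FPKM, 2 of the 4 genes of the chain lay below 0 (50%), against 46.4% of the others. Between 10 and 50 FPKM, 13 of the 17 genes of the chain did (76.5%), against 60.2% of the others. Between 50 and 200 FPKM, 45 of the 49 genes of the chain lay below 0 (91.8%), against 65.3% of the 1199 others. At 200 FPKM or more the shares were closer, with 14 of the 16 genes of the chain below 0 (87.5%) and 75.6% of the 270 others. The part that level has in the result was not tested.

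**Figure D5:**
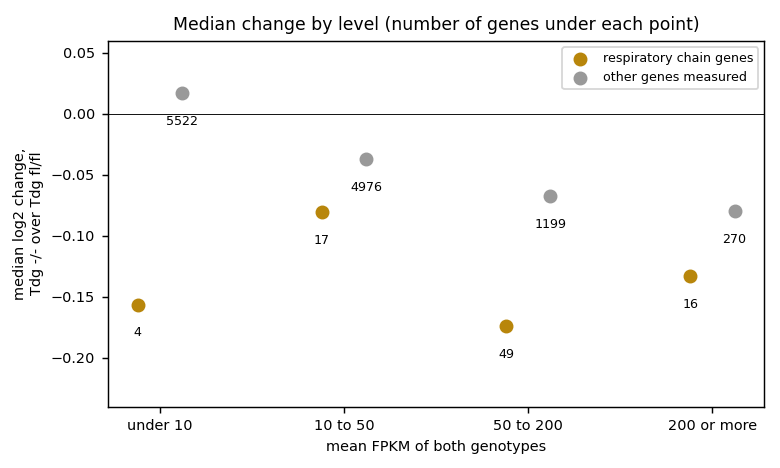
Median log2 change, Tdg -/- over Tdg fl/fl, of respiratory chain genes (gold) and of other measured genes (grey) in 4 classes of mean FPKM, with the number of genes under each point. The gold point lies below the grey one in each class, at -0.17 against -0.07 between 50 and 200 FPKM. Under 10 FPKM it stands for 4 genes, of which 2 lay below 0.

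Other genes of mitochondrial energy metabolism differed in how far they shared the lower values. Mitochondrial ribosomal proteins, which translate the subunits encoded in mitochondrial DNA, had 72 of 75 genes below 0, a median of -0.20 and 25 genes at -0.25 or less (33.3%). Mrpl12 was past -1, with 50.6 FPKM in Tdg -/- and 113 FPKM in Tdg fl/fl cells (-1.14). Mrpl55 (-0.50) and Mrps7 (-0.47) followed, and all 3 lie on chromosome 11. Relative to their neighbours these 3 lay at -0.49, -0.34 and -0.25. Over the whole list, 72 of the 75 lay below 0 relative to their neighbours, with a median of -0.19. Cytosolic ribosomal proteins, a list added after the values were seen, had 69 of 86 below 0 and a median of -0.06.

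Cyc1, the cytochrome subunit of complex III that the naming rule leaves out, had 130.3 FPKM in Tdg -/- and 150.5 FPKM in Tdg fl/fl cells (-0.21), and Cycs, cytochrome c itself, had 23.8 and 28.3 FPKM (-0.24). Over the 6 genes of this list, which also holds the electron transfer flavoprotein genes and Dhodh, the median was -0.08. Of 26 measured assembly factors outside the naming rule, 17 lay below 0, with a median of -0.03. The lowest were Cox11 (-0.45), Atpaf2 (-0.27) and Sco1 (-0.24), all on chromosome 11. Relative to their neighbours they lay at -0.26, -0.09 and -0.07. The 10 genes of coenzyme Q synthesis had a median of -0.03, with Adck3 at 0.31, Coq7 at -0.23 and Coq4 at -0.13. The 13 genes of the tricarboxylic acid cycle had a median of 0.02 with 7 above 0, while Suclg2 of succinyl-CoA ligase (-0.47), Ogdh of the oxoglutarate dehydrogenase complex (-0.41) and malate dehydrogenase Mdh2 (-0.29) were lower. Ogdh lies on chromosome 11, and relative to its neighbours it lay at -0.12.

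Transcription factors and other regulators of respiratory genes differed by small amounts between the genotypes. Over 18 measured regulators the range was -0.13 to 0.20, with a median of -0.06. Nrf1 had 15.7 FPKM in Tdg -/- and 16.8 FPKM in Tdg fl/fl cells (-0.09). It lies on chromosome 6, and relative to its 25 nearest genes it lay at -0.57, the lowest such value of the 18. Gabpa had 37.7 and 40.8 FPKM. Tfam, which packages mitochondrial DNA and takes part in its transcription, had 19.6 and 21.1 FPKM. The largest changes belonged to Gabpb2 and the coactivator Ppargc1b, both at 0.20, and to Esrrb at 0.16. Ppargc1a, a main coactivator of mitochondrial biogenesis in other tissues, stood at 0.034 FPKM in Tdg -/- and 0.0065 FPKM in Tdg fl/fl cells. The 13 subunits encoded in mitochondrial DNA were looked for by symbol and none was found, so they were not analysed here.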

How the data were processed

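The authors deposited 1 table of FPKM for each genotype, with 20437 rows and 1 value a row, behind which stand 2 libraries of polyadenylated RNA, single reads of 51 bp, per the labels' protocols. TopHat 1.4.1, Cufflinks 1.3.0 and the mm9 build are named in the submitters' processing notes. The sources used here do not state the step that joined the libraries, and without counts the depth behind each FPKM value is unknown, so no interval can be given.

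Rows of 1 symbol were summed. Genes with at least 1 FPKM in either genotype were kept, and log2 changes used a pseudocount of 1, in Python 3.11.15 with pandas 2.3.3. A log2 change of 1 was the fold used to call, and 0.25 was counted beside it. Chromosomes and gene order came from RefSeq (GRCm38.p6) by symbol or a synonym that names 1 gene, for all 86 genes of the chain and 11976 of 12053 measured genes. The 8 region lists are on mm9 and were not used here, since gene positions on that build were not at hand. The calculations were tested on simulated data.

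The genes, lists and naming rule were chosen with earlier results of these data known. Named were, for each complex, the 3 genes with the highest level, the largest rise and the largest fall, all of complex II and chromosome 11, the isoform families and the symbols nearest to or under the minimum; of other lists, up to 3 with the largest change. Genes named beyond this were chosen after their values were seen, and 1 gene that enters the counts and medians is not reported here. Alternatives covered the pseudocount, the minimum, scaling, repeated rows, chromosome 11 and neighbouring genes.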

Additional observations from a re-analysis of the deposited data

How the results depend on the processing

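With 1 pooled value a genotype there is no replicate to leave out, and these values cannot show a difference beyond replicate error. No paired analysis was possible because the 2 libraries of a genotype were deposited as 1 value. Across 9 alternatives, 125 results kept their direction, with medians inside an order-statistic interval over the genes and counts within 1.5 times. Another 8 moved further and 1 turned its direction. Of the 125, the 15 for repeated rows could not change, since 0 of the 86 genes had more than 1 row. A minimum of 5 FPKM, or none, removed or added only genes of complex IV. The medians of the other complexes and of chromosome 11 therefore could not change there. Counts past a log2 change of 1 that stayed at 0 are also among the 125. Leaving out chromosome 11, or Cox4nb, Atp5s and Atp5sl, could not change complexes without such genes. For lists of 4 to 8 genes the interval is their full range, so a kept median says little about stability. The medians of complex I core, II and III counted as kept at -0.037, -0.095 and -0.21 after quantile normalization (against -0.10, -0.16 and -0.29). Quantile normalization moved the median change of all 86 genes to -0.084 (against -0.17), of complex I accessory subunits to -0.062 (against -0.12), of complex IV to -0.032 (against -0.13) and of the 4 genes on chromosome 11 to -0.33 (against -0.40). It left 14 genes at -0.25 or less (against 22) and 22 above 0 (against 12): of the 74 below 0, 10 turned above 0 and 3 stood at 0. With a pseudocount of 0.1, 1 gene, Ndufa4l2, was past a log2 change of -1 (against 0). Relative to the 25 nearest genes, chosen after seeing the data except for chromosome 11, the median of the complex I assembly factors turned to -0.040 (against 0.02) and that of the chromosome 11 genes moved to -0.20. The cause of these shifts was not tested.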
